A study of Mus musculus with 4 samples.

Results

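The vascular connexins described here are 4 genes of the 27998 in the deposited count tables: Gja1, Gja4, Gja5 and Gjc1, each of which encodes a connexin of the vessel wall. They were chosen by name, and all 4 were detected in every library. On GRCm38, Gja1 (ENSMUSG00000050953) spans chr10:56377330-56402513 on the plus strand and Gja4 (ENSMUSG00000050234) chr4:127311421-127314039 on the minus strand. Gja5 (ENSMUSG00000057123) spans chr3:96904693-97077416 on the plus strand and Gjc1 (ENSMUSG00000034520) chr11:102799579-102819700 on the minus strand. Connexins form the gap junction channels through which neighboring cells pass ions and small molecules. Gja4 and Gja5 are best known from arterial endothelium, Gja1 from many cell types including endothelium, fibroblasts and cardiomyocytes, and Gjc1 from smooth muscle and the early heart. Signals that relax or constrict an arteriole travel along its wall through these channels, and Gja4 and Gja5 are used widely as markers of arterial identity.

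The cells were CD31+/CD45- cells (a surface profile of endothelium without blood cells) sorted from hearts of C57Bl6J mice, an inbred wild-type strain, at embryonic day 12 (E12, 37 animals pooled), embryonic day 15 (E15, 48), postnatal day 2 (P2, 21) and 8 weeks of age (adult, 6). Each stage was 1 library from pooled, frozen cells, so no difference between stages could be set against animal-to-animal spread, and stage, library and depth cannot be told apart. The tissue digestion differed between the embryonic and the postnatal hearts, dead cells were removed with beads at E12 and E15 but by re-sorting at P2 and in the adult, and red cells were lysed only in the adult preparation. The libraries held 5732 (E12), 6062 (E15), 5884 (P2) and 4242 (adult) barcodes with medians of 1241, 1013, 4531.5 and 1510 UMIs (unique molecular identifiers, each standing for 1 captured transcript), and pairs of libraries shared 25 to 60 barcodes.

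Levels are given as CPM, counts per 1e6: the gene's UMIs divided by all UMIs of the cells in a class. Intervals are exact 95% intervals, which cover counting error only and hold no variation between animals. Those of CPM and of ratios also hold no variation between cells. The tables count the 3′ ends of transcripts, and each gene is compared only with itself.

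The promoters of Gja4, Gja5 and Gja1 are shown first. The promoter set used had no entry for Gjc1, so none is shown for that gene. Each line gives 250 bases before and 50 bases after the RefSeq start site on GRCm38.p6, on the strand of the gene. Gja4 lies on chromosome 4 (chr4:127313990-127314289, minus strand), Gja5 on chromosome 3 (chr3:97032152-97032451, plus strand) and Gja1 on chromosome 10 (chr10:56377050-56377349, plus strand). Capitals mark matches, on either strand, to 5 short motifs searched. TGGGAA is the core read by the Notch effector RBPJ. SOX factors read ATTGT, and GATA factors read the letters GATAA. The motif of KLF factors is CACCC, and TBX factors bind to sites that hold GGTGTG.
Gja4: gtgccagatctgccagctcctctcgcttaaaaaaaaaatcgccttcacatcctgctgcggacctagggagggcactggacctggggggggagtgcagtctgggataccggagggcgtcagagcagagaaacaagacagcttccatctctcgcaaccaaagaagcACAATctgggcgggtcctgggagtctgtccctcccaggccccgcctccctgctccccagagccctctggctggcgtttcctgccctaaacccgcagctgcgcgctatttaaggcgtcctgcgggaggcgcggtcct
Gja5: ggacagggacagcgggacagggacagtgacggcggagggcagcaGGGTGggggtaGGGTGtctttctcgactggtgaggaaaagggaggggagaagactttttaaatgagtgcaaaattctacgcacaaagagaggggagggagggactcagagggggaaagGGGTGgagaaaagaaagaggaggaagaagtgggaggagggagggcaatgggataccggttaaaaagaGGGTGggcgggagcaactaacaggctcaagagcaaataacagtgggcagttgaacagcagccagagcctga
Gja1: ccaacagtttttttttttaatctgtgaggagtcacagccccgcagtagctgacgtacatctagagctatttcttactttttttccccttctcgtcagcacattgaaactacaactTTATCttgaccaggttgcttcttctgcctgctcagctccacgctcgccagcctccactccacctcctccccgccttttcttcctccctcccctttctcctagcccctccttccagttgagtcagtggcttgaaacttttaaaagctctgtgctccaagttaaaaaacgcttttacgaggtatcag
The Gja5 window held 4 matches to CACCC, all on the opposite strand, which start at positions -206, -195, -88 and -21 from the start site. The Gja4 window held 1 match to ATTGT at -86, and the Gja1 window held 1 match to GATAA at -135. None of these matches overlapped another. Among 27025 promoters of this length CACCC occurred in 56.7%, ATTGT in 31.6%, GATAA in 25.8%, TGGGAA in 25.5% and GGTGTG in 19.0%, so each of these matches is common, and a match is a description of the letters and not a bound site. The window was 62.0% GC in Gja4, 55.7% in Gja5 and 47.7% in Gja1.

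Cells were placed in classes by UMIs of marker genes that exclude the connexins. Endocardial cells, which line the heart chambers, had more Npr3 and Tmem108 than Fabp4, Cldn5 and Aplnr. Coronary cells, the lining of the vessels in the heart wall, had at least 2 UMIs of the latter 3 genes and more of them than of the endocardial pair. Artery cells had at least 3 UMIs of Cxcl12, Glul, Alpl and Nebl, and large artery cells at least 2 of Fbln5, Eln, Gkn3 and Clu. A cell could be in several classes, and coronary cells in neither arterial class are called other coronary cells.

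The class names were checked against markers of other cell types. At P2 and in the adult the artery class was endothelial, with 4457 and 5765 CPM for 6 general endothelial genes summed. It took in 12.1% of P2 and 44.2% of adult cells. Adult other coronary cells also carried artery markers, with a median of 1 UMI. Whether the adult artery class was arterial beyond its rule was not tested. At E12 the artery class held 268 CPM of the endothelial genes against 1420 CPM of mesenchymal and 1768 CPM of mural markers, and none of its 332 cells met the coronary rule. At E15 it held 936 CPM of endothelial against 3461 CPM of mesenchymal markers, and 19 of its 69 cells were coronary. The large artery class was likewise mesenchymal and mural rather than endothelial at E12 and mesenchymal at E15, so at both embryonic stages the 2 arterial classes are named by their rule only. At P2 the large artery class also held 2005 CPM of lymphatic markers, against 194 CPM in other coronary cells, and 643 of its 1951 cells were endocardial. In the adult it held 3415 CPM of mesenchymal and 719 CPM of mural markers beside 4560 CPM of endothelial ones, against 208 and 453 CPM of the former in other coronary cells. The part of these other transcripts in the large artery levels was not tested. The thresholds were whole UMIs, and P2 cells were the deepest by their medians, so a cell entered an arterial class at P2 with a smaller share of marker transcripts. The embryonic endocardial classes also rested on few UMIs. At E12, 1097 of 1716 endocardial cells passed their rule by 1 UMI, as did 1185 of 2115 at E15. Their median was 1 endocardial marker UMI at both stages.

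With cells classed at full depth, Gja5 was almost restricted to the 2 arterial classes at P2 and in the adult. At P2 it stood at 123 CPM (113 to 135; 487 UMIs in 711 cells) in artery cells and 58.7 CPM (54.2 to 63.4) in large artery cells, against 1.36 CPM (0.830 to 2.1; 20 UMIs in 3023 cells) in other coronary cells and 1.35 CPM (0.543 to 2.78) in endocardial cells. In the adult it stood at 148 CPM (131 to 167) in large artery cells and 64.1 CPM (56.3 to 72.6) in artery cells, above 7.01 CPM (4.34 to 10.7) in other coronary cells. Endocardial cells held 1 Gja5 UMI in the adult (4.79 CPM, 0.121 to 26.7), and the interval does not separate them from other coronary cells. At each of these stages the intervals of the 2 arterial classes lay apart from each other and above those of the other 2 classes. With every cell reduced at random to 800 UMIs before it was classed, the P2 levels were 134 CPM (114 to 156) in artery and 136 CPM (123 to 149) in large artery cells, so the P2 order of these classes rests on full depth, while the adult levels were 62.1 and 203 CPM.

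At E15 Gja5 stood at 73.4 CPM (31.7 to 145; 8 UMIs) in artery cells, 27.3 CPM (19.7 to 36.9) in other coronary cells, 18.6 CPM (10.6 to 30.2) in large artery cells and 4.50 CPM (2.24 to 8.05) in endocardial cells. Neighbors among the first 3 classes overlapped in their intervals, and the endocardial level lay below them. At E12 Gja5 was counted 42 times in the whole library, with 15.2 CPM (9.92 to 22.2) in large artery cells, 3.55 CPM (0.429 to 12.8) in artery cells, 2.83 CPM (1.14 to 5.83) in endocardial cells and no UMI in the 95 other coronary cells, which allows up to 14.3 CPM. The barcodes of the E12 table with 1 to 100 UMIs, too shallow to be called cells and used here as a measure of free RNA, contained 60.3 CPM (43.8 to 80.9) of Gja1, 87.7 CPM (67.5 to 112) of Gja4, 8.22 CPM (3.02 to 17.9) of Gja5 and 38.4 CPM (25.5 to 55.4) of Gjc1. No E12 level of the endocardial, coronary, artery or large artery class lay above that background by its interval for any of the 4 genes, so E12 levels and E12 cells with a UMI are given as counts and not read as expression. The background was not a floor, since E12 artery cells held 10.6 CPM of Gja4, below it. The part of free RNA in each E12 class level was not tested. A small group within the coronary class did lie above the background. The 11 E12 coronary cells with 5 or more large artery marker UMIs held 458 CPM (209 to 869) of Gja4, from 9 UMIs. They held 153 CPM (31.5 to 446) of Gja5, from 3 UMIs. This group was singled out after its values were seen.

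The ratio of artery to other coronary cells for Gja5 was 2.69 (1.09 to 5.80) for E15, 90.8 (58.2 to 150) for P2 and 9.14 (5.84 to 15) for the adult. With cells classed at 800 UMIs it was 14.9 (11.9 to 18.6) for P2 and 3.09 (2.31 to 4.13) for the adult, the same direction with smaller size, and 4.53 (0.877 to 14.8) for E15. The E15 artery class was mostly not endothelial. Among its cells that met the coronary rule the ratio was 2.25 (0.264 to 8.65), from 2 Gja5 UMIs, an interval that includes 1. Of the 4 connexins, 2 (Gja4 and Gja5) were at least 2-fold higher in artery cells at P2 and the same 2 in the adult, where 5.05% of 11721 and 3.83% of 10473 genes tested were. Large artery over other coronary cells gave 43.2 (27.7 to 71.2) at P2 and 21.1 (13.5 to 34.7) in adult cells for Gja5, or 15.1 and 10.1 with cells classed at 800 UMIs, and again Gja4 and Gja5 were the 2 of 4 that were at least 2-fold higher, against 13.8% of 12428 genes at P2 and 9.67% of 10189 in the adult. The genes tested were those with at least 20 UMIs in both classes together.

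**Figure D1:**
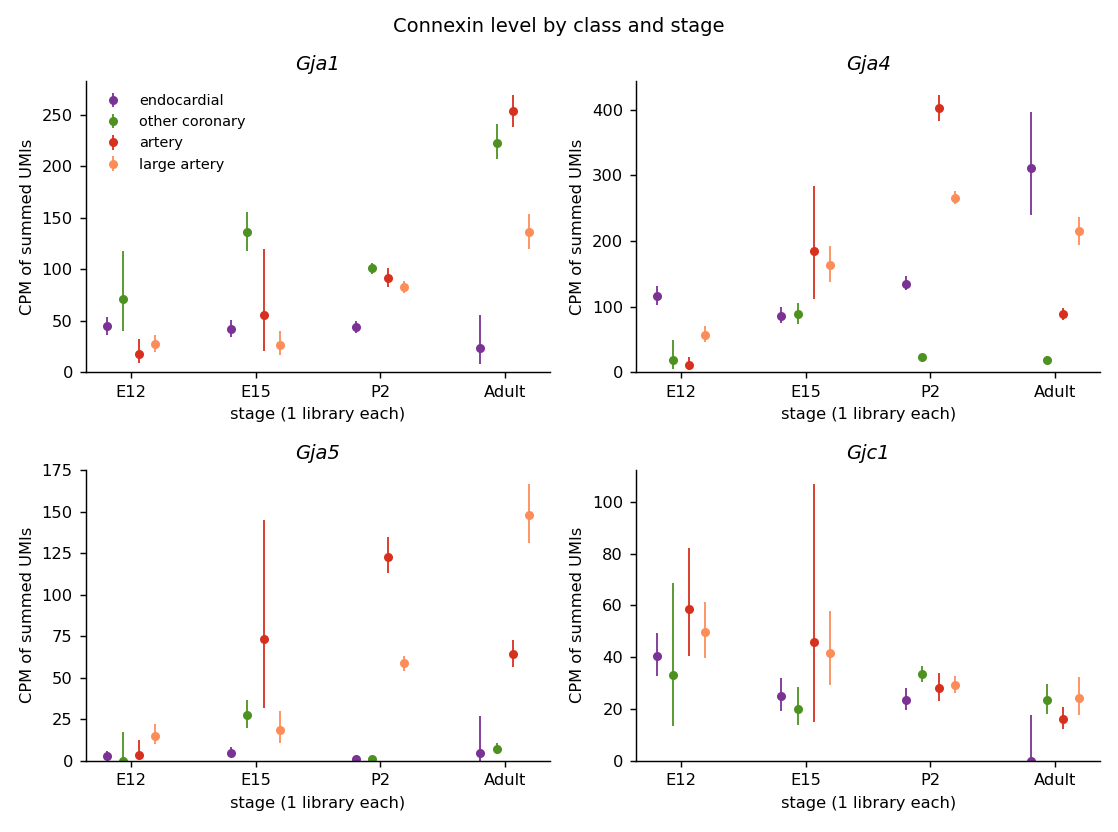
CPM of each connexin (linear axis, 1 panel per gene) over the 4 stages on the horizontal axis, with 1 colored point per cell class and exact 95% Poisson intervals as bars. Gja5 spans 1.35 CPM in endocardial to 123 CPM in artery cells at P2, Gja1 reaches 254 CPM in adult artery cells, and the adult endocardial point of Gja4 lies at 311 CPM.

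Gja4, the other arterial connexin, was higher in arterial than in other coronary cells and was also present in endocardium. At P2 it stood at 403 CPM (383 to 423; 1589 UMIs) in artery cells, 266 CPM (257 to 276) in large artery cells, 135 CPM (125 to 146) in endocardial cells and 22.7 CPM (20.3 to 25.3) in other coronary cells, with no overlap between neighbors. In the adult the order was 311 CPM (240 to 397; 65 UMIs in 75 cells) in endocardial cells, 215 CPM (194 to 237) in large artery cells, 88.5 CPM (79.3 to 98.5) in artery cells and 18.4 CPM (13.8 to 23.9) in other coronary cells, again without overlap between neighbors. The ratio of artery to other coronary cells was 17.7 (15.8 to 20.0) at P2 and 4.82 (3.61 to 6.53) in adult cells, and that of large artery cells was 11.7 at both stages (10.5 to 13.2 and 8.81 to 15.8).

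At E15 Gja4 was highest in the arterial classes, and its E12 class levels, none of them above free RNA, are given as counts only. At E12 it stood at 116 CPM (103 to 131) in endocardial, 57.2 CPM (46.5 to 69.7) in large artery, 19.0 CPM (5.19 to 48.8) in other coronary and 10.6 CPM (3.90 to 23.2) in artery cells, and neighbors after the first overlapped in their intervals. At E15 it stood at 184 CPM (112 to 284) in artery, 164 CPM (138 to 193) in large artery, 88.4 CPM (74.1 to 105) in other coronary and 86.3 CPM (75.0 to 98.7) in endocardial cells. The first 2 of these overlapped, as did the last 2.

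Endocardial over coronary cells, the second comparison, gave low ratios for Gja1 and Gja5 and a ratio for Gja4 that differed between stages. For Gja4 the E12 ratio was 2.02 (1.18 to 3.74) and the E15 ratio 0.783 (0.640 to 0.959), followed by 1.08 (0.994 to 1.17) after birth and 4.79 (3.64 to 6.22) in adult hearts. For Gja5 the ratio went from 0.137 (0.0376 to 0.549) and 0.154 (0.0723 to 0.301) in the embryo through 0.0460 (0.0184 to 0.0952) after birth to 0.102 (0.00256 to 0.570) in the adult. For Gja1 the embryonic ratios were 0.60 (0.363 to 1.05) and 0.317 (0.248 to 0.403), that after birth was 0.424 (0.368 to 0.486) and the adult ratio was 0.103 (0.0334 to 0.241). Gja1 and Gja5 were thus the 2 of 4 members at least 2-fold lower in endocardium at E15, where 5.66% of 9639 genes were, and at P2, where 11.2% of 12548 were. In the adult 3 of 4 were lower (Gja1, Gja5 and Gjc1), against 22.6% of 10716 genes, and 1 of 4 (Gja4) was higher, against 13.9%. The adult endocardial class was 75 cells with 3271 CPM of mesenchymal markers, against 208 CPM in other coronary cells, and the part of those transcripts in its levels was not tested.

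Within the endocardial class Gja4 followed the large artery markers at P2 and in the adult. At E12 Gja4 was lower in the cells with these markers, which were also lower in Npr3. This split was chosen after the values were seen. Of the 1082 endocardial cells at P2, the 643 that also met the large artery rule held 181 CPM (167 to 196) of Gja4 and the 437 without markers of either arterial class held 55.9 CPM (45.8 to 67.7), a ratio of 3.24 (2.63 to 4.02). Those 643 cells entered the rule mainly through Eln, at 1480 CPM, and their Npr3 level (653 CPM) was near that of the 437 others (720 CPM). In the adult the ratio was 4.01 (1.74 to 11.4), from 59 Gja4 UMIs in 46 cells and 6 in 29 cells, and Clu (1470 against 132 CPM) was the leading large artery marker. At E15 the ratio was 1.04 (0.615 to 1.68), and at E12 it was 0.167 (0.0665 to 0.349). Gja4 stood at 21.9 CPM (8.81 to 45.2) in the 155 E12 endocardial cells that met the large artery rule, below the free RNA level of 87.7 CPM (67.5 to 112). It stood at 131 CPM (116 to 148) in the 1553 without arterial markers, above that level. Those 155 cells held 178 CPM of Npr3 and 420 CPM of Tmem108, against 639 and 495 CPM in the 1553. The E12 subsets thus differed in Npr3, unlike those of P2, and whether the 155 cells were endocardial was not tested. Over all coronary cells, arterial ones included, the endocardial cells without arterial markers gave 0.447 (0.364 to 0.543) for Gja4 at P2 and 1.53 (0.558 to 3.35) in adult cells. Over other coronary cells the same endocardial cells gave 2.46 (2.0 to 3.08) and 5.40 (1.90 to 12.5), so the direction of the P2 comparison depended on whether arterial cells were counted as coronary. Gja1 was level between these endocardial subsets at P2, at 43.4 and 43.2 CPM.

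Gja1, known from many cell types, was seen in more cells than any other member at P2 and in the adult, and Gja4 was at E12 and E15. At P2 it stood at 101 CPM (95.5 to 106) in other coronary, 91.5 CPM (82.3 to 101) in artery, 82.6 CPM (77.3 to 88.3) in large artery and 43.4 CPM (37.9 to 49.5) in endocardial cells, and only the last lay apart from its neighbor. In the adult it stood at 254 CPM (238 to 270) in artery, 223 CPM (207 to 241) in other coronary, 136 CPM (120 to 154) in large artery and 23.9 CPM (7.78 to 55.9) in endocardial cells, of which the first 2 overlapped. Its ratio of artery to other coronary cells was 0.911 (0.809 to 1.02) at P2 and 1.14 (1.03 to 1.25) in adult cells, and its ratio of large artery to other coronary cells was 0.822 (0.756 to 0.894) and 0.608 (0.524 to 0.703). These P2 ratios depended on the cells taken. With cells classed at 800 UMIs the P2 artery ratio was 0.401 (0.299 to 0.529) and the adult one 1.05 (0.935 to 1.17). Among cells that also met the coronary rule, the large artery ratio was 1.05 (0.956 to 1.14) for P2 and 0.708 (0.609 to 0.820) for adult cells. Those P2 cells included cells with lymphatic markers. With the latter left out, P2 coronary cells with large artery markers only gave 0.669 (0.587 to 0.760) over other coronary cells. P2 coronary cells with both arterial marker sets gave 0.643 (0.523 to 0.783). The lower Gja1 of large artery cells thus held in the adult with and without the coronary rule. At P2 its direction within coronary cells depended on whether cells with lymphatic markers were counted.

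At E15 Gja1 stood at 136 CPM (118 to 156) in other coronary, 55.1 CPM (20.2 to 120; 6 UMIs) in artery, 41.7 CPM (34.0 to 50.6) in endocardial and 26.7 CPM (16.9 to 40.1) in large artery cells. At E12 it stood at 71.4 CPM (40.0 to 118) in other coronary, 44.5 CPM (36.5 to 53.6) in endocardial, 26.9 CPM (19.7 to 35.8) in large artery and 17.7 CPM (8.50 to 32.6) in artery cells. The artery to other coronary ratios of 0.406 (0.147 to 0.898) at E15 and 0.248 (0.0998 to 0.591) at E12 rest on arterial classes that were mostly not endothelial. Among artery cells that met neither the endocardial nor the large artery rule, all 6 Gja1 UMIs at E15 remained and the ratio was 1.46 (0.530 to 3.23).

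Gjc1, the connexin of smooth muscle and the early heart, varied least of the 4 genes between the classes at P2. At P2 it ran from 23.5 CPM (19.6 to 28.1) in endocardial to 33.5 CPM (30.6 to 36.6) in other coronary cells, and the artery (28.1 CPM) and large artery (29.2 CPM) levels lay between. In the adult it stood at 24.1 CPM in large artery, 23.4 CPM in other coronary and 16 CPM (12.3 to 20.6) in artery cells, and no UMI was counted in the 75 endocardial cells, which allows up to 14.4 CPM. Artery over other coronary cells gave 0.840 (0.677 to 1.03) for P2 and 0.685 (0.478 to 0.980) for adult cells. At E12 Gjc1 stood at 58.5 CPM (40.3 to 82.2) in the artery class, an interval that overlapped that of free RNA. At E15 the artery class had the highest point value (45.9 CPM, 14.9 to 107). At both stages this class was rich in mesenchymal and mural transcripts. At E15, 4 of the 5 Gjc1 UMIs of this class lay in its 19 cells that also met the coronary rule. Those cells held 123 CPM, which was 6.10 (1.56 to 17.2) times the level of other coronary cells. The source of these Gjc1 transcripts was not tested. In cells led by mural markers (Pdgfrb, Rgs5, Acta2 and others), Gjc1 reached 267 CPM (193 to 361; 26 cells) at P2 and 133 CPM (61 cells) in the adult, above every endothelial class.

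The artery marker count was then used as a scale, because a class cut from a sum is a range; 154 of the 711 artery cells at P2 and 392 of 1875 in the adult sat exactly at the threshold. In P2 coronary cells with 0, 1, 2, 3, 4 and 5 or more artery marker UMIs, Gja5 stood at 6.71, 13.0, 25.3, 74.5, 140 and 145 CPM. Gja4 stood at 72.7, 59.8, 81.2, 160, 194 and 526 CPM over the same steps. Gja1 stood at 106, 98.9, 116, 144, 129 and 66.2 CPM. The arterial pair thus climbed along the scale, with the steepest part of Gja5 at 3 and 4 UMIs and of Gja4 in the last step, where Gja1 was at its lowest.

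In adult coronary cells the climb with artery markers was shallower. Gja5 went through 22.2, 28.2, 34.4, 46.9, 55.5 and 72.0 CPM, and Gja4 through 49.7, 24.3, 41.3, 50, 69.3 and 104 CPM. Gja1 went through 197, 198, 225, 270, 250 and 257 CPM. Cells without an artery marker UMI held more Gja4 than those with 1, and Gja1 was higher at the upper end than at the lower.

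Against the count of large artery marker UMIs the adult order was clearer. Gja5 stood at 6.47, 49.7, 76.5, 129, 215 and 236 CPM in cells with 0 to 5 or more of these UMIs. Gja4 stood at 19.0, 84.8, 136, 153, 252 and 242 CPM, and Gja1 at 258, 216, 200, 205, 137 and 123 CPM. In the adult, Gja4 and Gja5 rose and Gja1 fell along this scale. At P2 Gja4 ran from 38.8 to 403 CPM, Gja1 stayed between 98.6 and 124 CPM, and Gja5 stood at 4.43, 6.18, 18.1, 4.57, 20.4 and 148 CPM, high only in the last step. Cells with lymphatic markers were counted in these P2 values. Deeper cells carry more marker UMIs, and the part of depth in these scales was not tested.

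**Figure D2:**
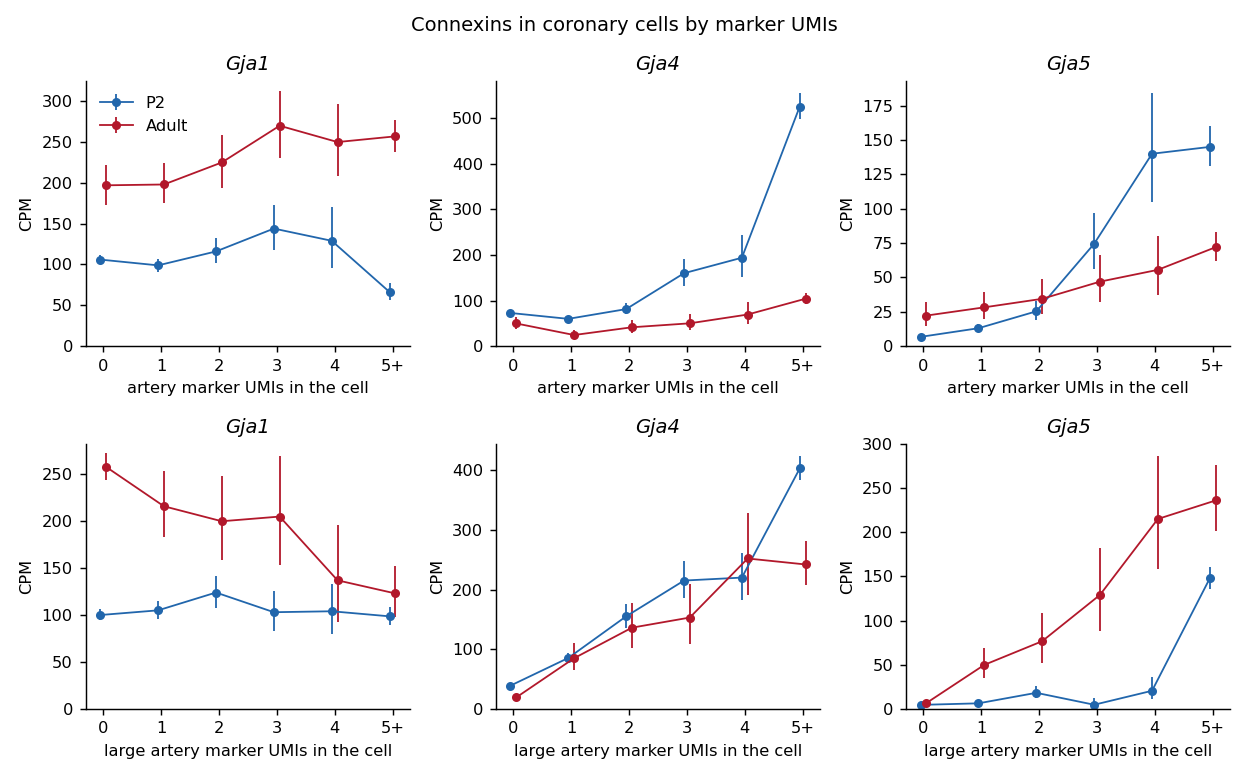
CPM (linear axis) of Gja1, Gja4 and Gja5, from left to right, in coronary cells by the number of artery marker UMIs (upper row) or large artery marker UMIs (lower row) in the cell, with P2 in blue, the adult in red and exact 95% Poisson bars. In the lower row the adult line of Gja5 climbs from 6.47 to 236 CPM and that of Gja1 descends from 258 to 123 CPM.

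The 2 arterial rules were then crossed among coronary cells, so that each cell counted once; cells with lymphatic markers were left out of those that met the large artery rule alone. At P2, Gja5 was at 1.36 CPM in the 3023 cells with neither marker set, 29.8 CPM in the 399 with artery markers only, 42.4 CPM in the 757 with large artery markers only and 257 CPM in the 280 with both. Gja4 was at 22.7, 250, 191 and 632 CPM in these groups. Gja1 was at 101, 107, 67.2 and 64.6 CPM. Cells with both marker sets thus held the highest Gja4 and Gja5 at P2, at 27.9 and 189 (121 to 312) times the level of cells with neither, while Gja1 stood at 0.643 times.

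In the adult the large artery markers separated the cells. Gja5 was at 7.01 CPM in the 2008 cells with neither set, 17.1 CPM in the 1404 with artery markers only, 172 CPM in the 205 with large artery markers only and 180 CPM in the 455 with both. Gja4 was at 18.4, 36.9, 170 and 216 CPM. Gja1 was at 223, 286, 81.5 and 190 CPM. Cells with artery markers only held 2.44 (1.42 to 4.31) times the Gja5 and 2.01 (1.43 to 2.85) times the Gja4 of cells with neither, against 21.9 (13.1 to 38.3) and 11.0 (9.58 to 12.7) times in the same comparison at P2.

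Gja1 in the adult stood at 1.28 (1.15 to 1.42) times the level of cells with neither set in cells with artery markers only, the same direction as Gja4 and Gja5, and at 0.365 (0.252 to 0.512) times in cells with large artery markers only, the opposite direction. Adding the large artery set to the artery set multiplied Gja5 by 8.61 at P2 and by 10.6 (7.60 to 14.9) in the adult, and Gja4 by 2.53 (2.28 to 2.82) and 5.86 (4.61 to 7.49). It multiplied Gja1 by 0.606 at P2 and by 0.665 in the adult. Gjc1 stayed between 26.0 and 33.5 CPM over these P2 groups, and in the adult it was lowest in cells with artery markers only, at 12.9 CPM, 0.553 (0.356 to 0.844) times the level of cells with neither.

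**Figure D3:**
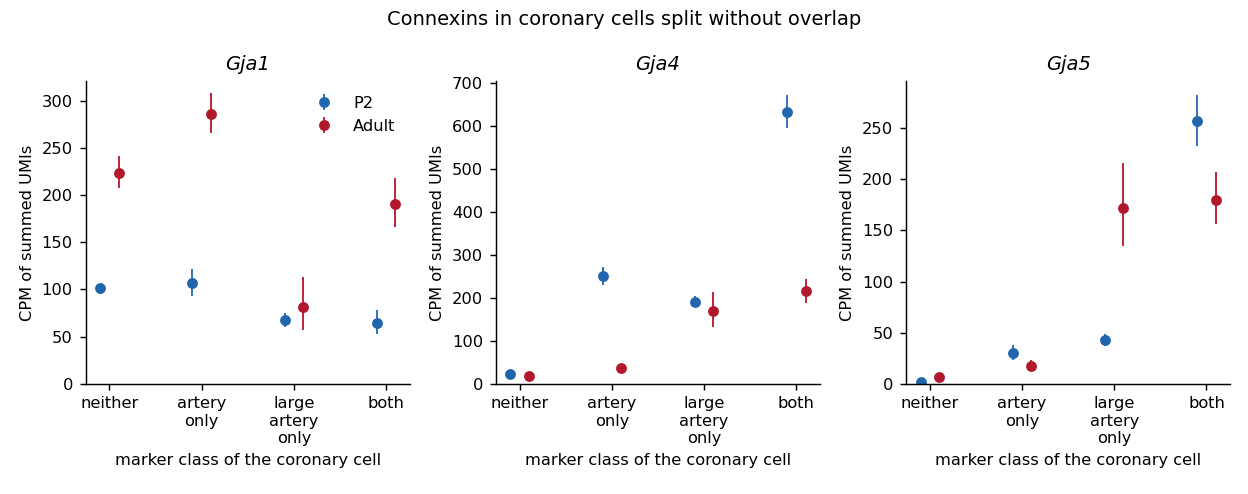
CPM (linear axis) of Gja1, Gja4 and Gja5 in coronary cells with neither arterial marker set, artery markers only, large artery markers only or both, with P2 in blue, the adult in red and exact 95% Poisson bars. The adult Gja5 points fall into a low pair (7.01 and 17.1 CPM) and a high pair (172 and 180 CPM), and the adult Gja1 point is lowest with large artery markers only (81.5 CPM).

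Between P2 and the adult Gja1 went up in vessel cells, and Gja4 went down in artery, large artery and all coronary cells. In coronary cells Gja1 changed from 102 CPM (98.4 to 107) to 232 CPM (221 to 244), a ratio of 2.27 (2.13 to 2.41), and in artery cells by a ratio of 2.77 (2.45 to 3.14). Gja4 in artery cells changed by 0.220 (0.195 to 0.247) and in all coronary cells by 0.519 (0.470 to 0.572). Gja5 changed by 0.519 (0.443 to 0.606) in artery cells but by 2.52 (2.18 to 2.91) in large artery cells and 1.60 (1.40 to 1.83) in all coronary cells. The classes differed in make-up: 33.0% of P2 and 6.06% of adult large artery cells were endocardial. In coronary cells with both marker sets Gja5 stood at 257 CPM at P2 and 180 CPM in the adult. With artery markers only it stood at 29.8 and 17.1 CPM, and with large artery markers only at 42.4 and 172 CPM. The part of class make-up in these ratios was not tested. Gjc1 in coronary cells changed by 0.635 (0.529 to 0.759). In endocardial cells the directions of Gja1 and Gja4 were the other way round, with Gja4 at 2.30 (1.76 to 2.97) times its P2 level and Gja1 at 0.552 (0.177 to 1.31) times, an interval that includes 1.

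These stage ratios were repeated with every cell reduced at random to 800 UMIs before it was classed. The artery class then changed from P2 to the adult by 5.88 (4.41 to 7.99) for Gja1, by 0.15 for Gja4 and by 0.463 for Gja5. The Gja1 level in P2 artery cells was then 43.3 CPM in place of 91.5 CPM, so the size of this change depended on the depth at which cells were classed. Large artery cells changed by 2.04 for Gja1, 0.585 for Gja4 and 1.49 for Gja5, and endocardial cells by 2.61 for Gja4. These ratios of Gja1, Gja4 and Gja5 had the direction they had at full depth, while Gjc1 in artery cells went from 0.569 to 0.973, an interval that includes 1.

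Between E15 and P2 the level of Gja5 in other coronary cells changed by 0.0498 (0.0277 to 0.0868), and Gja4 there by 0.257. At 800 UMIs per cell these ratios were 0.401 (0.264 to 0.631) and 0.568, nearer to 1. In all coronary cells, which that threshold does not divide, Gja5 changed by 1.01 and Gja4 by 1.14, both with intervals that include 1, and Gja1 by 0.779 (0.678 to 0.898). Endocardial Gja4 changed by 1.57 (1.34 to 1.84). Between E12 and E15 coronary Gja1 changed by 1.78 (1.10 to 3.05) and coronary Gja4 by 1.91 (1.11 to 3.56), both from the 113 coronary cells at E12, which carried 667 CPM of lymphatic markers. With cells classed at 800 UMIs these ratios were 1.87 (0.839 to 5.16) and 1.25 (0.588 to 3.17), both with intervals that include 1. The E12 coronary levels of both genes did not lie above free RNA.

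Gja4 was seen more often in cells with a Gja5 UMI than in those without. Among coronary cells at P2, 165 of the 198 with a Gja5 UMI also had a Gja4 UMI (83.3%, exact binomial 77.4 to 88.2), against 730 of 4398 without Gja5 (16.6%). In the adult it was 87 of 224 (38.8%, 32.4 to 45.6) against 236 of 3853 (6.13%), and at E15 13 of 34 (38.2%, 22.2 to 56.4) against 9.43%. Cells with Gja5 were somewhat deeper, with medians of 5390.5 against 4529.5 UMIs at P2, 1987.5 against 1462 in the adult and 1175 against 1169.5 at E15. After reduction to 500 UMIs per cell the shares with Gja4 were 32.3% against 4.90% at P2, 12.5% against 2.58% in the adult and 21.1% against 4.19% at E15. The order was the same at both depths at each of these 3 stages.

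Gja1 was seen less often in the Gja5 cells of P2 and not of the other stages. At P2, 15.2% (10.5 to 20.9) of coronary cells with Gja5 had a Gja1 UMI, against 29.0% (27.7 to 30.4) of those without, and at 2000 UMIs per cell the shares were 4.62% and 16.2%. In the adult the shares were 29.9% and 26.8%, and at E15 23.5% and 13.3%. Within the P2 artery class 20.1% (16.3 to 24.4) of cells with Gja4 had Gja1, against 35.1% (29.9 to 40.7) of those without, and at 2000 UMIs 9.29% against 17.4%. In the adult coronary cells the shares of Gja1 with and without Gja4 were 29.7% and 26.7%.

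Counted by combination, 1066 of the 4596 coronary cells at P2 had Gja1 alone of these 3 genes, 521 had Gja4 alone and 25 had Gja5 alone. Another 143 had Gja4 with Gja5, 209 had Gja1 with Gja4, 8 had Gja1 with Gja5, and 22 had all 3. In the adult Gja5 was more often seen alone, in 95 of 4077 cells, beside 62 with Gja4, 42 with Gja1 and 25 with both. Single-cell counts miss transcripts of low genes, so a missing UMI does not show a missing transcript. As a background for such shares, 0.647% of P2 endocardial cells (median 4532 UMIs) had a Gja5 UMI, against 17.9% of P2 artery cells (median 4928 UMIs).

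**Figure D4:**
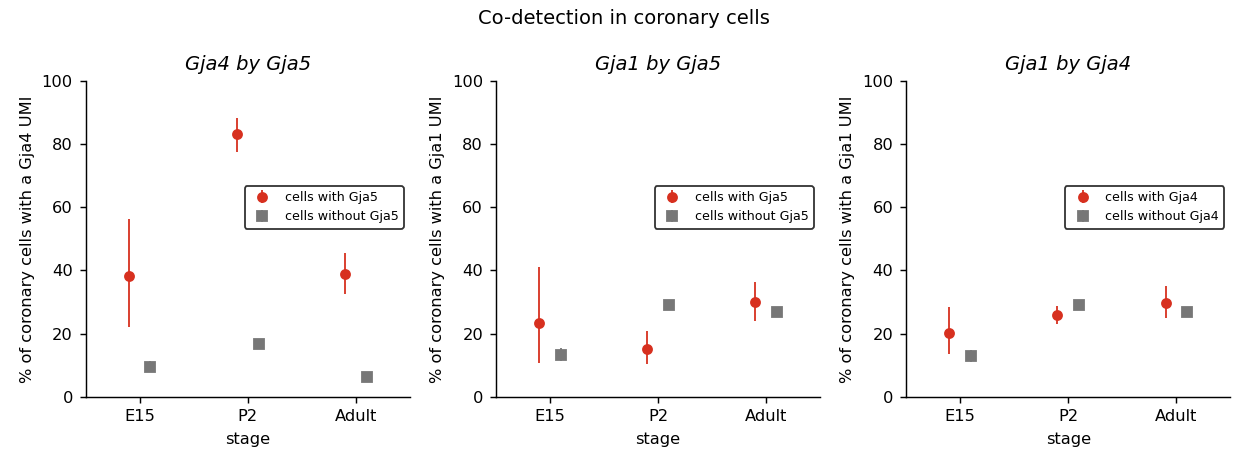
Share of coronary cells (percent, exact 95% binomial bars) with a Gja4 UMI among cells with and without Gja5 (left), with a Gja1 UMI among cells with and without Gja5 (middle), and with a Gja1 UMI among cells with and without Gja4 (right), for E15, P2 and the adult at full depth. The P2 points lie at 83.3% against 16.6% in the left panel and at 15.2% against 29.0% in the middle panel.

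With cells classed at full depth, Gja5 cells lay mostly inside the arterial rules after birth. At P2, 198 of the 211 cells with a Gja5 UMI were coronary (93.8%), 127 were artery cells (60.2%) and 163 large artery cells (77.3%). Of all P2 cells, 78.1% were coronary, 12.1% artery and 33.2% large artery cells. In the adult 224 of 227 were coronary, 167 artery (73.6%) and 170 large artery cells (74.9%). Of all adult cells, 96.1% were coronary, 44.2% artery and 17.9% large artery cells, so the coronary share of Gja5 cells was near that of all cells. At E15, 34 of 75 were coronary, 5 met the artery rule, 13 met the large artery rule, and 25 met none of the rules. At E12, 23 of 37 met the large artery rule, 3 the coronary rule, 2 the artery rule and 10 none. Of all E15 cells, 20.7% were coronary, 1.14% met the artery rule, 9.70% the large artery rule and 37.5% none. Of all E12 cells these shares were 1.97%, 5.79%, 19.1% and 51.1%. Few embryonic Gja5 cells met the artery rule, as did few of all cells. The share of E15 Gja5 cells that met none (33.3%) was near that of all cells.

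Lists of 18 arterial, 6 vein, 4 flow and 10 mitosis genes were then summed in coronary cells with and without a UMI of each connexin, at 500 UMIs per cell. With Gja5, the arterial list (Hey1, Hey2, Sox17, Dll4, Jag1 and others of the Notch and arterial program) stood at 3.44 (2.61 to 4.47) times the level without it at E15, at 2.23 (1.90 to 2.60) times in P2 cells and at 1.71 (1.48 to 1.97) times in adult cells. With Gja4 the ratios were 2.30 (1.88 to 2.81), 1.40 (1.26 to 1.55) and 1.33 (1.14 to 1.53). With Gja1 they were 2.06 (1.70 to 2.48), 1.07 (0.947 to 1.20) and 1.16 (1.06 to 1.26). At E15 all 3 connexins thus marked cells higher in arterial genes, and at P2 Gja1 did not. For Gja5 at P2, 12 of the 18 arterial genes had an interval above 1 at 500 UMIs. The share of all genes called in these splits is not given here. This and the later counts of list genes therefore do not show that a list stands out from other genes.

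The vein list (Nr2f2, Nr2f1, Ephb4, Emcn, Vwf and Nrp2) stood at 0.685 (0.486 to 0.939) times with Gja5 in the adult, at 0.704 (0.524 to 0.926) times with Gja4 and at 0.848 (0.739 to 0.969) times with Gja1. At E15 and P2 the vein intervals of all 3 connexins included 1. The flow list (Klf2, Klf4, Nos3 and Thbd, genes known to respond to blood flow) was near level with Gja5, at 1.03 (0.794 to 1.32) times at P2 and 1.05 (0.803 to 1.36) times in the adult. With Gja1 the flow list stood at 1.05 (0.919 to 1.20) times among P2 cells and at 0.779 (0.677 to 0.893) times among adult cells.

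At full depth the leading arterial genes in P2 coronary cells with Gja5 were Jag1, a Notch ligand, at 10.9 (9.61 to 12.3) times the level without, Vegfc at 9.16 and Hey2, a Notch target, at 9.14. Bmx, an arterial kinase, was at 6.67, Hey1 at 4.74 and the arterial transcription factor Sox17 at 3.43. Hes1, another Notch target, went the other way at 0.590. Of the vein list, Nr2f2, which specifies vein identity, was at 0.237 (0.146 to 0.363) and Nrp2 at 0.201. Both were picked by their values, and the P2 values of the other vein genes are not given here. With cells reduced in depth, the P2 interval of the summed vein list included 1. The low Nr2f2 and Nrp2 therefore do not describe the vein list as a whole at P2. In the adult Tmem100 was at 6.93, Vegfc at 5.11, Hey1 at 4.10, Hes1 at 0.260 and Nr2f2 at 0.122. At E15 Cxcr4 was at 7.94, Unc5b at 4.33, Jag1 at 4.09 and Hey1 at 3.37, and the vein list gene Vwf was at 6.80, above 1 like the arterial genes.

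The mitosis list (Mki67, Top2a, Cdk1 and others, expressed in dividing cells) separated the arterial pair from Gja1 at E15 and P2 but not in the adult. At 500 UMIs, coronary cells with Gja4 held 0.132 (0.0360 to 0.341) times the mitosis transcripts of those without at E15, 0.239 (0.156 to 0.351) times at P2 and 0.677 (0.138 to 2.02) times in the adult, and 8 of 10 genes had an interval below 1 at P2. With Gja5 the ratios were 0.0947 (0.00239 to 0.529) at E15 and 0.222 (0.0812 to 0.483) at P2, and no mitosis UMI was counted in the adult, where the upper bound was 1.08. With Gja1 they were 0.936 (0.646 to 1.32), 1.32 (1.10 to 1.59) and 0.280 (0.0898 to 0.669). Cells with Gja4 or Gja5 were low in mitosis genes at E15 and P2, and cells with Gja1 were not. In the adult only the Gja1 interval lay below 1.

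Depth mattered to the size and, once, to the direction of these ratios. At full depth the P2 ratios for the mitosis list were 0.582 for Gja4, with all 10 genes below 1, 0.666 for Gja5 and 1.54 (1.50 to 1.58) for Gja1, with all 10 above 1. The adult ratio for Gja1 was 1.06 (0.916 to 1.22) at full depth against 0.280 at 500 UMIs, so its direction in the adult is uncertain. Among E15 other coronary cells, which hold no cell of either arterial class, the 29 with Gja5 held 3.24 (2.79 to 3.74) times the arterial list, with 11 of 18 genes above 1, and 0.169 (0.0774 to 0.322) times the mitosis list. At 500 UMIs the E15 arterial ratio in other coronary cells was 3.63 (2.69 to 4.80), from 16 cells with Gja5.

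**Figure D5:**
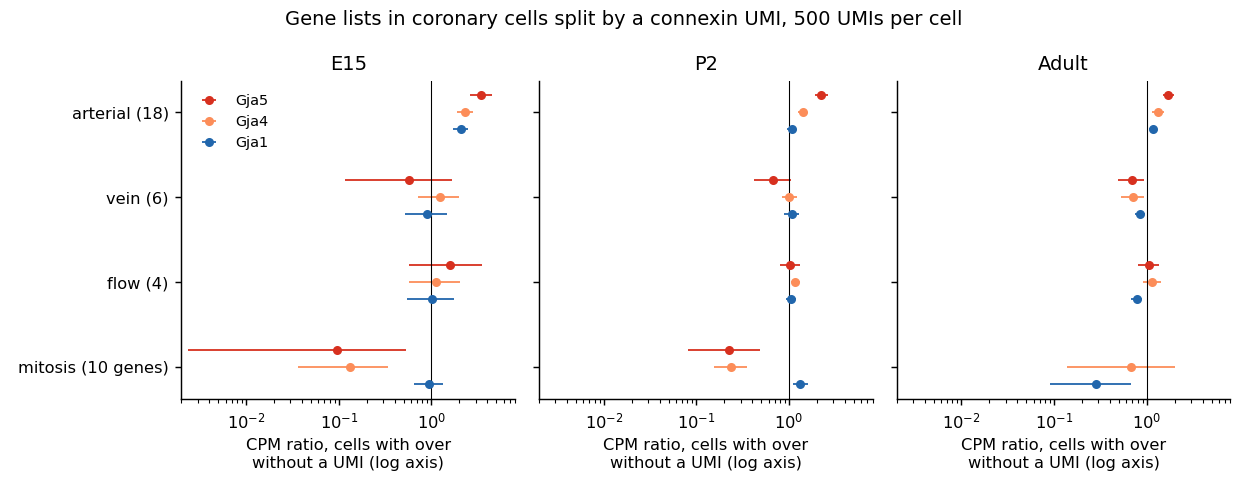
Ratio of summed gene-list CPM (log axis, exact 95% bars) in coronary cells with over without a UMI of Gja1, Gja4 or Gja5, each cell reduced to 500 UMIs, for the arterial, vein, flow and mitosis lists at E15, P2 and in the adult. The adult mitosis ratio for Gja5 is 0 and has no point. Arterial ratios for Gja5 lie above 1 at each of these 3 stages (3.44, 2.23 and 1.71), and the P2 mitosis ratios for Gja4 and Gja5 lie at 0.239 and 0.222.

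Connexins were also counted in cells that other markers led. The 197 P2 cells with Prox1 and lymphatic markers held 300 CPM of Gja1 and 276 CPM of Gja4, both above the level of all P2 coronary cells, and 12.4 CPM of Gja5. Cells led by mesenchymal markers at P2 (167 cells) held 230 CPM of Gja4, and adult cells led by mural markers (61 cells) held 184 CPM. The 1120 mesenchymal-led cells of E12 held 46.8 CPM of Gja1, 51.0 CPM of Gjc1 and 9.36 CPM of Gja4, and the 35 immune-led cells of E12 held no UMI of any of the 4 connexins.

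Panx1, a pannexin, which forms channels to the outside of the cell, had at least 20 UMIs at every stage and stood at 33.4 CPM in P2 endocardial cells. Of genes for partner proteins, the junction scaffold Tjp1 stood between 93 and 111 CPM in coronary cells at each stage, while the caveolar gene Cav1 went from 243 CPM at E12 through 1279 and 2120 CPM to 1821 CPM in the adult and the endothelial cadherin Cdh5 from 346 CPM at E12 to 1239 CPM. Gja1 stood at 74.1, 132, 102 and 232 CPM in coronary cells over the same stages.

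The genes whose levels ran most like each connexin were found by Pearson's r of log2(CPM + 10) over 14 class-by-stage values and 9763 genes, a description without a test, since values of 1 stage share a library and its depth. For Gja1 they were Pik3r6 (0.94), Il16 (0.93), Prdm1 (0.93), Pparg (0.92) and St8sia4 (0.91). For Gja4 they were Prmt2 (0.88), Mamld1 (0.84), Armcx6 (0.84), Slc27a3 (0.83) and Fam69a (0.82), and for Gja5 Sdcbp2 (0.85), Sema3g (0.84), Col8a1 (0.80), Itpk1 (0.80) and Mical1 (0.80). For Gjc1 they were Kifap3 (0.90), Pds5b (0.89), Mllt11 (0.89), Ank2 (0.89) and Hddc2 (0.88). Among the members the value was 0.66 for Gja4 with Gja5, -0.61 for Gja1 with Gjc1, and between -0.27 and 0.16 for the other 4 pairs. The 14 values included those of E12 classes, whose levels are not read as expression here. They also included embryonic arterial classes that were not mainly endothelial, so these r values do not describe endothelial cells alone.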

How the data were processed

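CD31+/CD45- heart cells of 4 stages were profiled with 10x Genomics 3′ v2 chemistry, 1 library per stage. The deposited values are whole UMI counts per gene and barcode, which the authors made with Cell Ranger 2.2 on mm10. The E12 table listed barcodes of any depth, so those with at least 452 UMIs were kept (88.7% of its UMIs); the other tables were used whole. Cells were classed by marker UMIs, UMIs were summed per class and stage, and CPM, ratios and shares were given exact 95% Poisson, conditional binomial or Clopper-Pearson intervals (Python 3.11.15, scipy 1.17.1). With 1 library per stage no test was run, and a limit for a count of 0 used 3 counts. The ratio intervals were checked on simulated Poisson counts. Those counts held no spread between cells, so the check could not show whether the intervals are too narrow where UMIs gather in few cells. Doublets (a score by simulated pairs, above 0.15 in 2.05% to 7.11% of barcodes) were kept in the main values and left out in an alternative. The members, classes and gene lists were chosen with earlier results of these data known. The genes named were the 4 members, other connexins and pannexins with at least 20 UMIs in a stage (1 of these is not reported here), 3 partner genes (Tjp1, Cav1 and Cdh5, picked from 6 after their values were seen), list genes, and the 5 genes most like each member by Pearson's r; the leading list genes were picked by their values. Alternatives changed the classes, depth, cell filters and stages. Gene coordinates and promoters come from GRCm38 and RefSeq.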

Additional observations from a re-analysis of the deposited data

Results flagged for a closer look

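The artery to other coronary ratio of Gja1 lay below 1 at E12 (0.248) and E15 (0.406) and above 1 in the adult (1.14), with none of these counting intervals including 1. The endocardial to coronary ratio of Gja4 lay above 1 at E12 (2.02) and in the adult (4.79) and below 1 at E15 (0.783). The large artery to artery ratio of Gja4 was 5.38 at E12 and 2.43 in the adult but 0.661 at P2. For Gja5 that ratio was 4.28 at E12 and 2.31 in the adult but 0.253 at E15 and 0.475 at P2. With cells classed at 800 UMIs the P2 levels of Gja5 were 134 CPM in artery and 136 CPM in large artery cells, so the P2 difference was lost. The E12 ratios rest on class levels that did not lie above free RNA and are not read as differences in expression. With 1 library per stage these differences between stages were not tested.

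The E12 table also held 156821 barcodes with 1 to 100 UMIs, used only as the measure of free RNA and in no comparison of classes or stages. Summed, they held 60.3 CPM of Gja1, 87.7 CPM of Gja4, 8.22 CPM of Gja5 and 38.4 CPM of Gjc1.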

How the results depend on the processing

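For each connexin and each of 3 class comparisons the log2 ratio was averaged over the 4 stages (0.5 UMI added to each sum), and for co-detection the log2 ratio of the share with Gja4 in coronary cells with over without Gja5 was used per stage. Of 151 alternatives to these 15 results, 119 stayed within the counting interval, 28 moved beyond it and 4 changed direction. The main means for artery over other coronary cells were -0.78 (Gja1), 1.65 (Gja4), 3.01 (Gja5) and 0.31 (Gjc1), for large artery cells -1.19, 2.35, 2.99 and 0.35, and for endocardial over coronary cells -1.70, 0.75, -3.15 and -0.77. Co-detection stood at 2.02 (E15), 2.33 (P2) and 2.66 (adult).

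The 4 changes of direction all concerned Gja1 in artery cells. An endothelial filter kept only cells with more endothelial marker UMIs than mesenchymal, mural, cardiomyocyte, immune and erythroid marker UMIs together. With this filter, artery Gja1 was 0.14, Gja4 2.81, Gja5 4.25 and Gjc1 1.11, and large artery Gja4 was 3.64 and Gja5 4.16. With each cell in only 1 of the endocardial, artery and large artery classes, and the coronary classes as before, artery Gja1 was 0.16, endocardial Gja1 -2.09 and endocardial Gja4 0.09. Within coronary cells, an alternative chosen after seeing the data, artery Gja1 was 0.19 and Gja4 2.97, and large artery Gja1 was -0.31, Gja4 3.21 and Gja5 4.43. Over P2 and the adult alone, also chosen after seeing the data, artery values were 0.02 (Gja1), 3.20 (Gja4), 4.82 (Gja5) and -0.40 (Gjc1), large artery values -0.50, 3.54, 4.88 and -0.08, and endocardial Gja1 -2.19 and Gja4 1.19. With cells classed at 800 UMIs, artery Gja5 was 1.10 and large artery Gja1 -1.66, Gja4 1.92 and Gja5 1.58. Thresholds 1 UMI higher gave 0.98 for endocardial Gja4. Co-detection was 2.72 (500 UMIs) and 2.58 (2000 UMIs) at P2 and 2.28 (500 UMIs) in the adult. The cause of these moves was not tested.

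No paired analysis was possible because every stage has 1 library and the results come from no test. No replicate was left out, since each stage has 1. Small classes were other coronary (95) and coronary (113) at E12, artery (69) at E15 and endocardial (75) in the adult, and the embryonic means rest on arterial classes with few endothelial transcripts.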
